A study of Homo sapiens with 4 samples.

Results

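The genes described here are 10 members of the peroxisome proliferator-activated receptor (PPAR) system: the receptors PPARA, PPARD and PPARG, their dimer partners RXRA and RXRB, the coactivators PPARGC1A and PPARGC1B, the estrogen-related receptor ESRRA, and CPT1A and PDK4, which switch cells towards fat as fuel. They are 10 of the 57891 GENCODE 29 genes with annotated transcripts in the deposited values, and were chosen by their place in the pathway with their ratios to 0 min in these same libraries known. Expression was read as the deposited estimated counts of each gene's annotated transcripts, summed and scaled to counts per 1000000 counts of the library (CPM). Their values are therefore a description and carry no test.

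The cells were AC16, a human line derived from ventricular heart tissue by fusion with transformed fibroblasts and labelled as cardiomyocyte. Poly(A) RNA was sequenced from 1 library each of untreated cells (0 min) and of cells kept for 10, 30 and 360 min in 10 nM doxorubicin, an anthracycline drug that slides between DNA bases and poisons topoisomerase II. Treated cells also received fresh medium without serum, and for the 0 min cells the protocol leaves this unstated. Effects of the drug and of the serum-free medium therefore cannot be told apart. No difference has a replicate check, and every range given is a 95% interval for counting error alone.

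PPARs are nuclear receptors that bind fatty acids and related lipids and act on DNA as dimers with a retinoid X receptor. PPARα drives fat burning in heart and liver, PPARδ does so more broadly, and PPARγ is the master regulator of fat cells. The coactivators PGC-1α and PGC-1β, encoded by PPARGC1A and PPARGC1B, join PPARs and ERRα, the product of ESRRA, to raise mitochondrial gene expression. CPT1A lets long-chain fatty acids into mitochondria by linking them to carnitine, and PDK4 phosphorylates and so shuts off pyruvate dehydrogenase, which spares glucose. Both are textbook PPAR targets.

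The sequences that tell the transcripts of ESRRA and RXRB apart are short. In both genes a change of splice site adds a few coding bases to 1 exon, and the longer and the shorter form held different shares of the deposited counts in different libraries. The 3 extra bases of ESRRA lie at chr11:64314741-64314743 on the plus strand, and the 12 of RXRB at chr6:33195455-33195466 on the minus strand (GRCh38, GENCODE 29). Capitals mark these bases, and 30 coding bases are shown on either side.
ESRRA-201: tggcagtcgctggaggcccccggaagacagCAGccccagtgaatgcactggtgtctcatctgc
ESRRA-203: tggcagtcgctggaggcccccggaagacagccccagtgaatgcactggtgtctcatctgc
RXRB-202: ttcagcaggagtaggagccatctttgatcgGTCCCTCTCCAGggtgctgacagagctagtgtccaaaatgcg
RXRB-201: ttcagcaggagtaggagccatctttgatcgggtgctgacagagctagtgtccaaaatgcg

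PPARA and PDK4 were both lower than at 0 min at 10 and at 30 min, so the 250 bases before their RefSeq starts (GRCh38.p14) are shown. The window of PPARA is chr22:46150276-46150525 on the plus strand and that of PDK4 is chr7:95596517-95596766 on the minus strand. Capitals mark GC boxes (GGGCGG) and CCAAT boxes on either strand, with overlapping matches counted.
PPARA: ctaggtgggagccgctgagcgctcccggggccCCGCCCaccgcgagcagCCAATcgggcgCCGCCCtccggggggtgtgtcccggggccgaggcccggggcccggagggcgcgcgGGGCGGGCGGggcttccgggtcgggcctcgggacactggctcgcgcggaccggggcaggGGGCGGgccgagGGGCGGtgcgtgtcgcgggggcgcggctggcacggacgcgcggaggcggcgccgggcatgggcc
PDK4: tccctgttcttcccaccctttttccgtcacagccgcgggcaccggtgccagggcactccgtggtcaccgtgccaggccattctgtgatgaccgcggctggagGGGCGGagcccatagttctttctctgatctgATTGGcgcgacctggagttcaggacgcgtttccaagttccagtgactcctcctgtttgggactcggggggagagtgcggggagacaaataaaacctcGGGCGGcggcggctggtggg
The PPARA window held 6 GC boxes and 1 CCAAT box, and the PDK4 window held 2 and 1. Such matches are common: of 35116 RefSeq windows of this length, 42.6% held a GC box and 32% a CCAAT box. RefSeq gives the 10 members 19 such windows, and a GC box stood in a window of 6 members and a CCAAT box likewise of 6. A member was counted if any of its windows held a match, so these counts cannot be set against the shares of single windows. The nuclear receptor element AGGTCA, in 12.1% of all windows, was found only for PPARG among the members. No member's window held the direct repeat of AGGTCA with 1 base between the copies (0.0171% of all windows), the estrogen-related receptor site TCAAGGTCA (0.319%), the forkhead site GTAAACA (2.98%) or the cAMP response element TGACGTCA (1.65%). These letters describe the windows and say nothing of binding.

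The libraries held 55156612 to 56875881 counts. One read pair was taken as worth about 4 counts, which makes 13789153 to 14218970 pairs a library. Of 10 cardiomyocyte markers, 7 stayed under 1 CPM in every library, among them TNNT2, TNNI3, MYH6 and MYH7. ACTC1 and PLN, also among the 7, had no counts at all. These 7 go against the labelled cell type, while the other 3, MYL2, RYR2 and TTN, had 1 CPM or more in every library. The summed cardiomyocyte markers lay between 53.7 and 67.9 CPM, the fibroblast markers between 5418 and 7627 CPM, and all 5 adipocyte markers stayed under 1 CPM. At 0 min COL1A1 and COL1A2 held 5613 and 870 CPM of the fibroblast sum. Cardiomyocyte markers had 53.7, 67.9, 60.1 and 63.9 CPM at 0, 10, 30 and 360 min. In the same order, fibroblast markers had 6620, 7627, 5522 and 5418 CPM and immune markers 30.2, 57.6, 33.0 and 29.8 CPM. Endothelial markers had 5.70, 11.4, 4.54 and 5.91 CPM. These sums were each highest in the 10 min library, and that of epithelial markers (467, 465, 517 and 482 CPM) in the 30 min library. Of the immune sum, CD68 alone held 29.3, 56.2, 32.4 and 28.4 CPM. In every library, 5 of 10 fibroblast, 4 of 5 endothelial, 2 of 4 immune and 2 of 4 epithelial markers stayed under 1 CPM. No counts were found for DCN, LUM, KDR and CD14. The part of all these markers in the results below was not tested. In RNA from bulk cells, fewer cells of a kind and less RNA per cell cannot be told apart.

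A gene was called higher or lower where its CPM differed by 2-fold or more, its interval left out 1 and either library held 5 CPM or more of it. Among the 10 members, 9 reached 5 CPM and PPARGC1A did not. At 10 min, 0 members were higher and 2 were lower than at 0 min, PPARA and PDK4, where 7.69% of all 11892 genes compared were higher and 6.85% lower. Against 0 min, the 30 min library again had 0 members higher and the same 2 lower, with 3.55% of 11533 genes higher and 3.25% lower. At 360 min, 0 were higher and PPARA and RXRB were lower, with 3.26% of 11511 genes higher and 3.34% lower. Counting the whole locus, with the assembled models described below, left PPARA alone lower at 360 min and put RXRB at a log2 ratio of 0.02, where 0.988% of 9717 genes were higher and 0.988% lower. The median log2 ratio of the 9 members was -0.46, -0.26 and -0.18 at 10, 30 and 360 min, where all genes compared had -0.04, -0.01 and 0.01. The 3 comparisons share the single 0 min library.

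**Figure D1:**
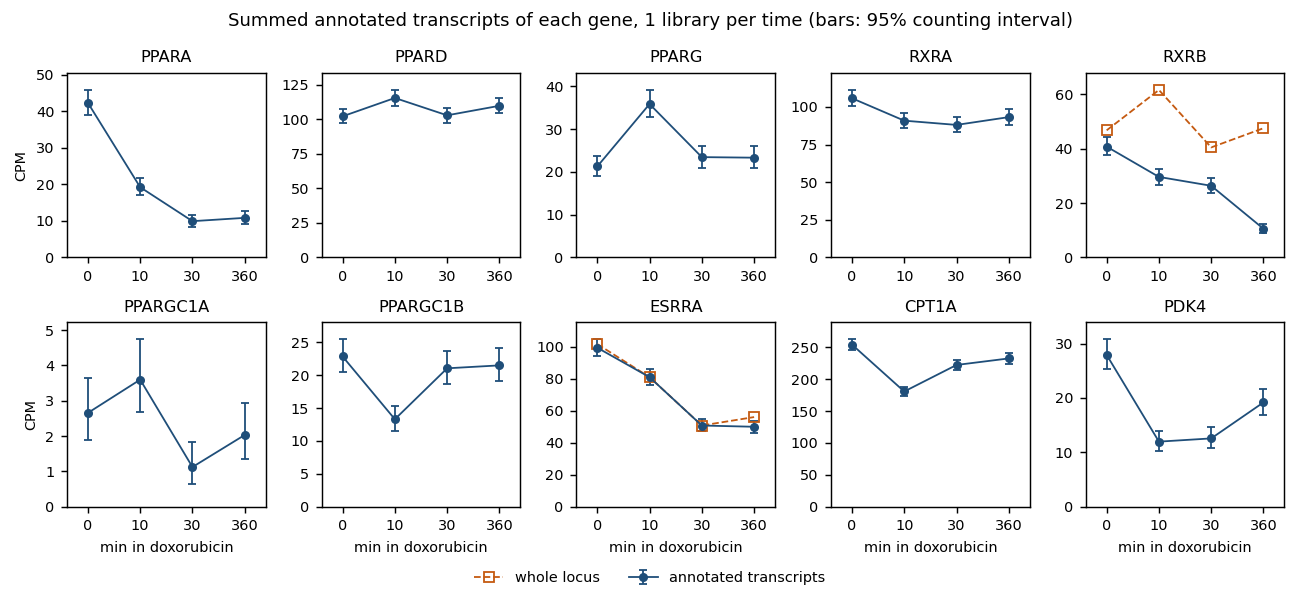
CPM of the summed annotated transcripts of each gene (vertical axis, from 0, own scale per gene) at 0, 10, 30 and 360 min in doxorubicin, 1 library per time; bars are 95% counting intervals and open squares add the assembled models of the locus for RXRB and ESRRA. PPARA stands at 42.3 CPM at 0 min and at 9.91 to 19.2 CPM in the 3 treated libraries, PPARD stays between 102.1 and 115.4 CPM, and the whole RXRB locus stands at 47.6 CPM at 360 min.

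Levels of different genes are compared per kilobase of transcript. In the 0 min library the order from high to low was CPT1A with 50.7 CPM per kilobase, ESRRA with 46.8, PPARD with 28.1, RXRA with 19.4, RXRB with 16.4, PPARG with 12.6, PPARA with 9.37, PDK4 with 8.96, PPARGC1B with 2.34 and PPARGC1A with 0.532. PPARD was thus the most abundant of the 3 PPARs in these cells on this scale, and PPARGC1B stood above PPARGC1A. Without a replicate, neighbours in the order such as PPARA and PDK4 have no spread to be judged by.

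PPARA (ENSG00000186951; chromosome 22, 46150521 to 46243756, plus strand, GRCh38) was the only 1 of the 3 PPARs that was lower in the treated libraries than at 0 min. It had 42.3 CPM (39.0 to 45.8) at 0 min, 19.2 (17.0 to 21.7) at 10 min, 9.91 (8.32 to 11.7) at 30 min and 10.8 (9.16 to 12.7) at 360 min. All 3 treated libraries lay below the untreated one, with no overlap of intervals. The ratio to 0 min was 0.454 (0.392 to 0.525) at 10 min, 0.234 (0.193 to 0.283) at 30 min and 0.256 (0.212 to 0.307) at 360 min. The 10 min library held more PPARA than the later libraries: the 360 min level was 0.563 (0.458 to 0.691) of the 10 min level.

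The fall lay in counts assigned to a single long transcript. PPARA-201, a coding transcript of 9965 bases of which 8624 are the last exon, had 34.7 CPM at 0 min, 8.96 at 10 min, 1.34 at 30 min and 5.22 at 360 min. Its share of the gene's counts was 82.0% (78.7 to 85.0) at 0 min, 46.6% (40.5 to 52.8) at 10 min, 13.5% (8.27 to 20.4) at 30 min and 48.2% (40.0 to 56.6) at 360 min. The other 11 annotated transcripts together held 7.63, 10.3, 8.57 and 5.6 CPM in the same order of times. They stayed short of the 2-fold rule at every time, with ratios to 0 min of 1.34 (1.04 to 1.74), 1.124 (0.859 to 1.47) and 0.734 (0.541 to 0.992).

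The transcripts with at least 0.5 CPM in some library differ in length and in what they encode. PPARA-203, 9995 bases long with the same coding sequence of 1404 bases behind another first exon, had 3.27, 3.09, 2.24 and 1.85 CPM at 0, 10, 30 and 360 min. PPARA-202, with that coding sequence in only 1558 bases, had 0.02 CPM at 0 min, which is under the floor of 3 read pairs (0.211 CPM), then 1.92, 1.09 and 0.16 CPM. The retained-intron form PPARA-210, which has no annotated coding sequence, had 2.53, 3.02, 3.56 and 1.61 CPM and was the leading PPARA transcript at 30 min. PPARA-204, PPARA-206 and PPARA-207, of 531, 368 and 433 bases, each stayed under 0.8 CPM.

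Summed by coding sequence, PPARA-201, PPARA-202 and PPARA-203, which encode the same protein and are the 3 forms that reach the last exon, held 38.0 CPM at 0 min, 14.0 at 10 min, 4.67 at 30 min and 7.23 at 360 min. The ratios to 0 min were 0.368 (0.311 to 0.435), 0.123 (0.0935 to 0.159) and 0.191 (0.152 to 0.236). The 9 forms that end before that exon held 4.34, 5.23, 5.25 and 3.59 CPM. The fall of PPARA thus lay in counts assigned to PPARA-201 and was not shared alike by the forms that reach the last exon. PPARA-203, with a last exon of 8623 bases, had 3.27 CPM at 0 min and 1.85 CPM at 360 min. It differs from PPARA-201 mainly in exons of 87 and 84 bases, so few reads can tell these long forms apart. PPARA-202, which holds only the beginning of that exon, was higher at 10 min (1.92 CPM) than at 0 min (0.02 CPM). With the CPM of each transcript divided by its own length before summing, the gene fell less. It had 9.37, 9.20, 6.67 and 5.61 CPM per kilobase at 0, 10, 30 and 360 min. The log2 ratios were -0.03, -0.49 and -0.74 in place of -1.14, -2.09 and -1.97. Short forms with few counts weigh more on that scale, such as PPARA-206 of 368 bases, with 33 counts at 0 min and 37 at 10 min. On that scale PPARA was short of 2-fold at all 3 times. How reads were divided among the transcripts of a gene is the assembler's estimate, and whether RNA quality or coverage of long transcripts differed between libraries was not tested.

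**Figure D2:**
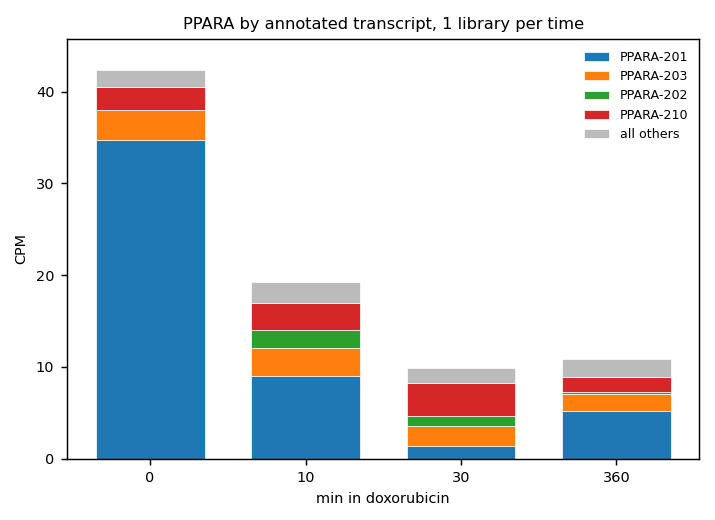
Stacked CPM of the annotated PPARA transcripts (vertical axis, from 0) at 0, 10, 30 and 360 min in doxorubicin, 1 library per time. PPARA-201 makes up 34.7 of 42.3 CPM at 0 min and 1.34 of 9.91 CPM at 30 min, while the remaining segments together stay between 5.6 and 10.3 CPM.

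PPARD (ENSG00000112033; chromosome 6, 35342558 to 35428191, plus strand) was steady. It had 102.1 CPM (96.9 to 107) at 0 min, 115.4 (110 to 121) at 10 min, 102.8 (97.5 to 108) at 30 min and 109.7 (104 to 115) at 360 min, and its largest ratio to 0 min was 1.13 (1.05 to 1.21) at 10 min. PPARD-201 and PPARD-203, which share a coding sequence of 1323 bases, split the gene nearly evenly. PPARD-201 had 51.5, 51.5, 52.0 and 49.5 CPM and PPARD-203 had 38.0, 54.4, 43.5 and 45.7 CPM at the 4 times, so the second form led in the 10 min library only.

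PPARG (ENSG00000132170; chromosome 3, 12287368 to 12434356, plus strand) was highest in the 10 min library. It had 21.3 CPM (18.9 to 23.8) at 0 min, 35.9 (32.8 to 39.2) at 10 min, 23.5 (21.0 to 26.2) at 30 min and 23.3 (20.9 to 26.0) at 360 min. Its interval at 10 min lay above those of the other libraries, and those of the other 3 overlapped. With a ratio of 1.69 (1.46 to 1.95) at 10 min it was the member nearest to the rule on the higher side without passing it. PPARG-202 accounted for the difference, with 32.1 CPM at 10 min and 11.8, 11.98 and 12.7 CPM at 0, 30 and 360 min. PPARG-207, which has the same coding sequence and lacks a 74-base exon of PPARG-202, was instead lowest then, with 1.87 CPM at 10 min and 5.61, 6.11 and 4.12 CPM in the other 3.

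RXRA (ENSG00000186350; chromosome 9, 134317098 to 134440585, plus strand) had 105.8 CPM (100 to 111) at 0 min, 90.9 (85.9 to 96.0) at 10 min, 88.0 (83.1 to 93.1) at 30 min and 93.2 (88.2 to 98.4) at 360 min. Every treated library lay below the untreated one, by ratios of 0.859 (0.797 to 0.926), 0.832 (0.771 to 0.898) and 0.881 (0.817 to 0.95), all short of 2-fold. RXRA-201, which GENCODE 29 lists as a processed transcript, held 102.3, 86.3, 85.7 and 88.7 CPM, and the coding RXRA-202 held 2.81, 4.08, 2.28 and 3.95 CPM. With transcripts annotated as protein coding alone, which leaves out RXRA-201, the direction turned to log2 ratios of 0.54 at 10 min and 0.49 at 360 min.

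RXRB (ENSG00000204231; chromosome 6, 33193588 to 33200688, minus strand) gave different results with and without unannotated transcript models. Its annotated transcripts had 40.8 CPM (37.5 to 44.2) at 0 min, 29.6 (26.8 to 32.6) at 10 min, 26.4 (23.7 to 29.2) at 30 min and 10.5 (8.89 to 12.4) at 360 min, the last a ratio of 0.258 (0.214 to 0.310). The locus also holds 3 transcript models that the assembly made and that are not annotated, with 6.0 CPM at 0 min, 32.0 at 10 min, 14.1 at 30 min and 37.0 at 360 min. With these added, the whole locus had 46.8, 61.6, 40.5 and 47.6 CPM, and the 360 min ratio was 1.02 (0.911 to 1.13). The 10 min ratio then became 1.32 (1.19 to 1.46) in place of 0.727 (0.639 to 0.826). The fall at 360 min was found in the annotated transcripts and not in the locus.

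Within RXRB, RXRB-202, the form with the 12 bases in capitals above, had 34.3 CPM at 0 min, 22.5 at 10 min, 19.7 at 30 min and 1.29 at 360 min. The 2 annotated forms without them, led by RXRB-201 with 3.53, 1.19, 2.59 and 4.86 CPM, summed to 3.53, 1.73, 3.60 and 6.29 CPM. The assembled models made up 77.8% (74.5 to 81.0) of the locus at 360 min, against 12.8% (10.4 to 15.6) at 0 min. Of the exon bases of RXRB, 6.22% overlap SLC39A7 on the other strand, and strand use in counting is not given in the sources used here.

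ESRRA (ENSG00000173153; chromosome 11, 64305572 to 64316743, plus strand) stood just inside 2-fold of the untreated level at the later times. It had 99.3 CPM (94.2 to 105) at 0 min, 80.9 (76.2 to 85.8) at 10 min, 50.7 (47.0 to 54.6) at 30 min and 49.9 (46.3 to 53.8) at 360 min. The untreated library was highest, the 10 min library intermediate, and the 30 and 360 min libraries overlapped. Ratios to 0 min were 0.815 (0.753 to 0.882), 0.510 (0.466 to 0.559) and 0.503 (0.458 to 0.551), the 2 values nearest to the rule on the lower side without passing it. With its 1 assembled model included, the 30 min ratio was 0.499 (0.455 to 0.546), which passes the rule, and the 360 min ratio 0.551 (0.504 to 0.602), which does not.

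The ESRRA counts also lay in different forms at different times. ESRRA-201 had 88.1 CPM at 0 min, 11.5 at 10 min, 0.87 at 30 min and 1.63 at 360 min. ESRRA-203, which lacks the 3 bases in capitals above, had 6.44, 35.6, 32.7 and 29.4 CPM. ESRRA-202, which begins at another first exon, had 2.85, 31.3, 12.6 and 15.3 CPM. All forms with the 3 bases together made up 89.5% (87.9 to 91.1) of the locus at 0 min, 53.6% (50.6 to 56.5) at 10 min, 32.5% (29.1 to 36.1) at 30 min and 32.0% (28.7 to 35.4) at 360 min. Counts assigned to the form without them were past the rule on the higher side at each time. The ratios to 0 min were 5.53-fold (4.42 to 7.00), 5.07-fold (4.04 to 6.42) and 4.56-fold (3.63 to 5.79). ESRRA-201 and ESRRA-203 read in the same frame, with coding sequences of 1269 and 1266 bases. At 2215 and 2218 bases they differ only by the 3 bases and by where the first exon starts, so few reads can tell them apart. Their split is the assembler's estimate, and the intervals leave out error in that division. Of the exon bases of ESRRA, 9.37% overlap TRMT112 on the other strand.

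**Figure D3:**
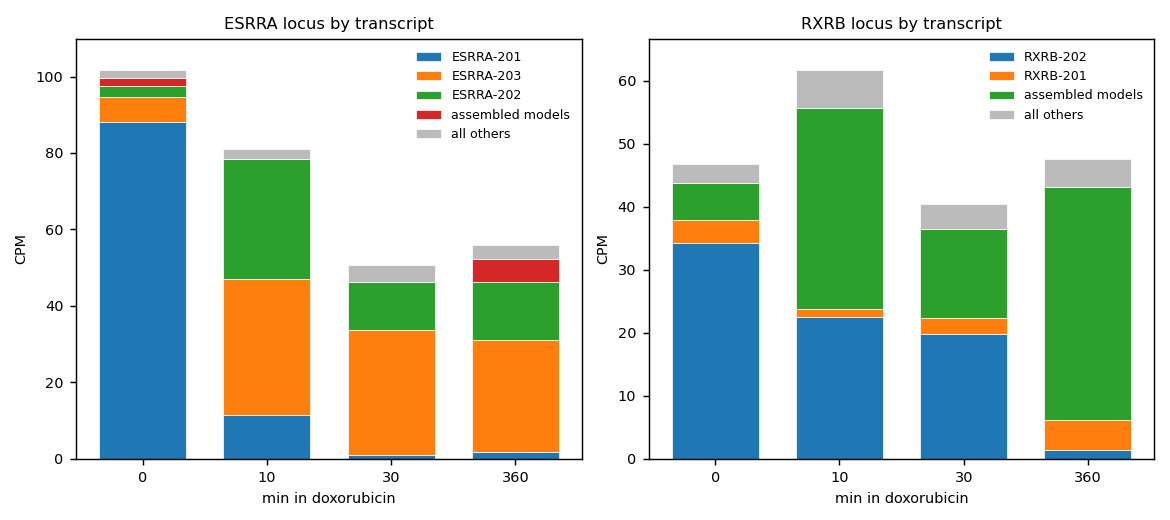
Stacked CPM by transcript over the whole locus of ESRRA (left) and RXRB (right), vertical axis from 0, at 0, 10, 30 and 360 min in doxorubicin, 1 library per time; assembled models are not annotated. ESRRA-201 holds 88.1 CPM at 0 min and 0.87 CPM at 30 min, and assembled models fill most of the RXRB bar at 360 min (37.0 of 47.6 CPM).

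PPARGC1A (ENSG00000109819; chromosome 4, 23755041 to 23904089, minus strand) was scarce. It had 2.65 CPM (1.88 to 3.65) at 0 min, 3.60 (2.67 to 4.74) at 10 min, 1.12 (0.635 to 1.84) at 30 min and 2.03 (1.35 to 2.93) at 360 min. The 30 min library was lowest, with a ratio to 0 min of 0.422 (0.218 to 0.781), a value that passes the fold but not the level that the rule requires. PPARGC1A-201 held 95.5 to 100% of these counts, and PPARGC1A-206 stayed at or under 0.05 CPM. The intervals of the ratio to 0 min covered 1 at 10 min (0.870 to 2.13) and at 360 min (0.452 to 1.28).

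PPARGC1B (ENSG00000155846; chromosome 5, 149730298 to 149855022, plus strand) was lowest in the 10 min library. It had 22.8 CPM (20.4 to 25.5) at 0 min, 13.3 (11.4 to 15.4) at 10 min, 21.0 (18.7 to 23.6) at 30 min and 21.5 (19.1 to 24.1) at 360 min. The 10 min ratio was 0.582 (0.483 to 0.699), short of 2-fold, and the other 3 libraries overlapped. PPARGC1B-201 had 22.2, 13.1, 20.2 and 19.7 CPM, and PPARGC1B-202 reached 1.11 CPM at most.

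CPT1A (ENSG00000110090; chromosome 11, 68754620 to 68844410, minus strand) had 254 CPM (246 to 263) at 0 min, 181 (174 to 188) at 10 min, 222 (214 to 230) at 30 min and 232 (225 to 241) at 360 min. It was lowest at 10 min, with a ratio of 0.711 (0.675 to 0.748), and all 3 treated libraries lay below the untreated one by less than 2-fold. The deep counts make these intervals narrow, yet they cover counting error only. CPT1A-201 made up 97.0 to 98.7% of the gene in the 4 libraries, and CPT1A-206 had 4.27, 2.90, 1.30 and 0.82 CPM.

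PDK4 (ENSG00000004799; chromosome 7, 95583499 to 95596491, minus strand) was low at 10 and 30 min and intermediate at 360 min. It had 27.9 CPM (25.2 to 30.8) at 0 min, 11.96 (10.2 to 13.9) at 10 min, 12.6 (10.8 to 14.6) at 30 min and 19.2 (16.9 to 21.6) at 360 min. The 10 and 30 min libraries overlapped, and both lay below 360 min, which lay below 0 min. Ratios to 0 min were 0.428 (0.355 to 0.515), 0.450 (0.374 to 0.539) and 0.687 (0.586 to 0.805). PDK4-201, the coding form, led throughout with 23.7, 10.5, 11.7 and 18.2 CPM, and the retained-intron form PDK4-204 had 3.90, 1.17, 0.63 and 0.62 CPM. Unlike PPARA, its fall per kilobase was about as large, with log2 ratios of -1.17, -1.20 and -0.56 in place of -1.22, -1.15 and -0.54.

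**Figure D4:**
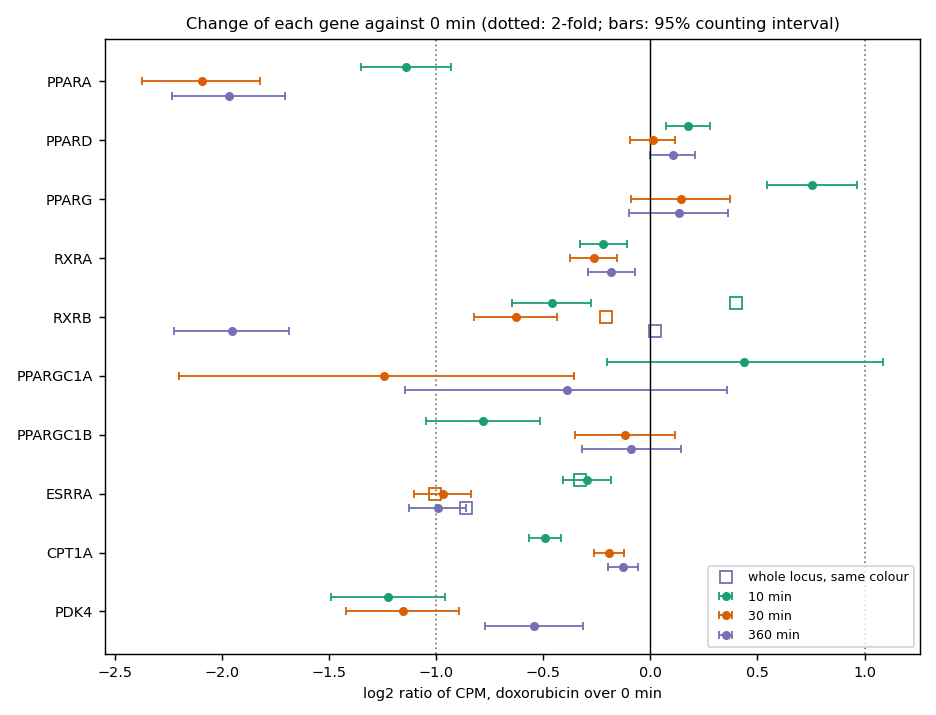
Log2 ratio of CPM, doxorubicin over 0 min (horizontal axis), for each member at 10, 30 and 360 min; bars are 95% counting intervals, dotted lines mark 2-fold, and open squares are whole-locus ratios of RXRB and ESRRA. PPARA lies at -1.14, -2.09 and -1.97, and the RXRB square at 360 min lies at 0.02 where its annotated sum lies at -1.95.

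The wider pathway was read from 10 lists that hold 131 genes besides the members. Of the 131, 108 reached 5 CPM in a comparison and 15 of these (13.9%) passed the rule at 1 or more times, where 20.6% of all 12140 genes compared did. By time, 9 of 108 (8.33%), 5 of 105 (4.76%) and 7 of 108 (6.48%) passed at 10, 30 and 360 min, where 14.5%, 6.8% and 6.59% of all genes did in either direction. With the whole locus counted, 5 of the 15 still passed each time they had before. The 17 enzymes of mitochondrial beta-oxidation, all above 5 CPM, had 0 higher and 0 lower at each time, with medians of -0.08, 0.02 and 0.01 on the log2 scale. Their largest ratios were those of ACADS, the short-chain acyl-CoA dehydrogenase, at 1.65 (1.34 to 2.04) and of ACAD10 at 1.54 (1.33 to 1.79), both at 10 min. Many enzymes of this list are known PPARα targets, and all 17 stayed within 2-fold of 0 min in the 3 treated libraries.

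The carnitine shuttle list, which includes CPT1A, had 9 of 10 genes above 5 CPM. SLC25A20, the carnitine-acylcarnitine carrier of the inner mitochondrial membrane, had 14.4 CPM at 10 min against 29.7 CPM at 0 min (ratio 0.484, 0.407 to 0.574), the same with the whole locus. ACACB, the acetyl-CoA carboxylase whose product inhibits CPT1, had 2.16 CPM at 360 min against 15.2 CPM at 0 min (0.142, 0.0931 to 0.208), but 11.8 against 15.3 CPM over the whole locus. Among genes of fatty acid uptake and activation, 2 of 6 were lower at 10 min and 0 at 30 and 360 min. Over all genes compared, 6.85% were lower at 10 min, and 2 of 6 are too few to set against that share. The acyl-CoA synthetase gene ACSL3 had 84.4 CPM at 10 min against 170.1 CPM at 0 min, and the transporter gene SLC27A4 had 19.0 against 41.4 CPM. Whole-locus ratios were 0.941 for ACSL3 and 0.580 for SLC27A4, short of the rule. In peroxisomal beta-oxidation 1 of 9 genes passed, ACOX3 at 360 min (9.05 CPM against 19.8 CPM at 0 min), with a whole-locus ratio of 1.03. At 360 min 3.34% of all genes compared were lower.

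The list of pyruvate dehydrogenase, its kinases and its phosphatases includes PDK4. DLAT, the acetyltransferase subunit, had 46.1, 71.3 and 75.8 CPM at 10, 30 and 360 min against 12.5 CPM at 0 min, 3.69-fold (3.12 to 4.39), 5.71-fold (4.87 to 6.74) and 6.07-fold (5.17 to 7.16) higher. Over its whole locus the ratios were 0.857, 1.19 and 1.26. The phosphatase gene PDP2, which acts against PDK4, was 5.05-fold (3.66 to 7.11) higher at 10 min and 4.73-fold (3.41 to 6.66) at 360 min, with whole-locus ratios of 1.52 and 0.824. Its whole locus was lower at 30 min (0.246). The PDK4 locus holds no assembled model with counts, so its values are the same on both scales.

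Among 26 PPAR target genes, 15 were above 5 CPM in the 10 min comparison, with 2 higher and 2 lower. Over all genes compared, 7.69% were higher and 6.85% lower at 10 min. TXNIP, an inhibitor of glucose uptake, had 78.0 CPM at 10 min against 5.87 CPM at 0 min, 13.3-fold (10.6 to 16.8) higher, and stood at 3.69 and 3.95 CPM at 30 and 360 min. ACOT2, a mitochondrial acyl-CoA thioesterase with a near copy in ACOT1, had 22.2 CPM at 10 min and 18.7 CPM at 360 min against 4.15 CPM at 0 min, but its whole-locus ratios were 1.88 and 1.42. SLC25A20 and PDK4 were the 2 lower ones. The list's median was 0.16, 0.02 and -0.05 on the log2 scale at 10, 30 and 360 min.

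The lists of regulators had 0 to 2 genes past the rule at each time, too few to set against the share over all genes. Of the other RXR partners and estrogen-related receptors, RARA, a retinoic acid receptor, had 41.2 CPM at 10 min and 30.7 CPM at 360 min against 11.5 CPM at 0 min, and whole-locus ratios of 1.32 and 0.993. Among 19 coactivators and corepressors, TBL1X was lower at 30 min (50.1 CPM against 103 CPM at 0 min) and NCOA3 at 360 min (2.57 CPM against 9.23 CPM), with whole-locus ratios of 0.738 and 1.14. VEGFA, the angiogenic factor that PGC-1α can induce, was the 1 of 15 PGC-1 and ERR targets past the rule, with 138 CPM at 30 min against 58.0 CPM at 0 min (2.38-fold, 2.19 to 2.59). In the AMPK list CAB39, the scaffold of the upstream kinase LKB1, had 55.3 CPM at 10 min and 58.4 CPM at 30 min against 124 CPM at 0 min (ratios 0.445 and 0.469), and PRKAA2, a catalytic subunit, had 11.5 CPM at 30 min against 5.71 CPM (2.01-fold, 1.53 to 2.66).

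**Figure D5:**
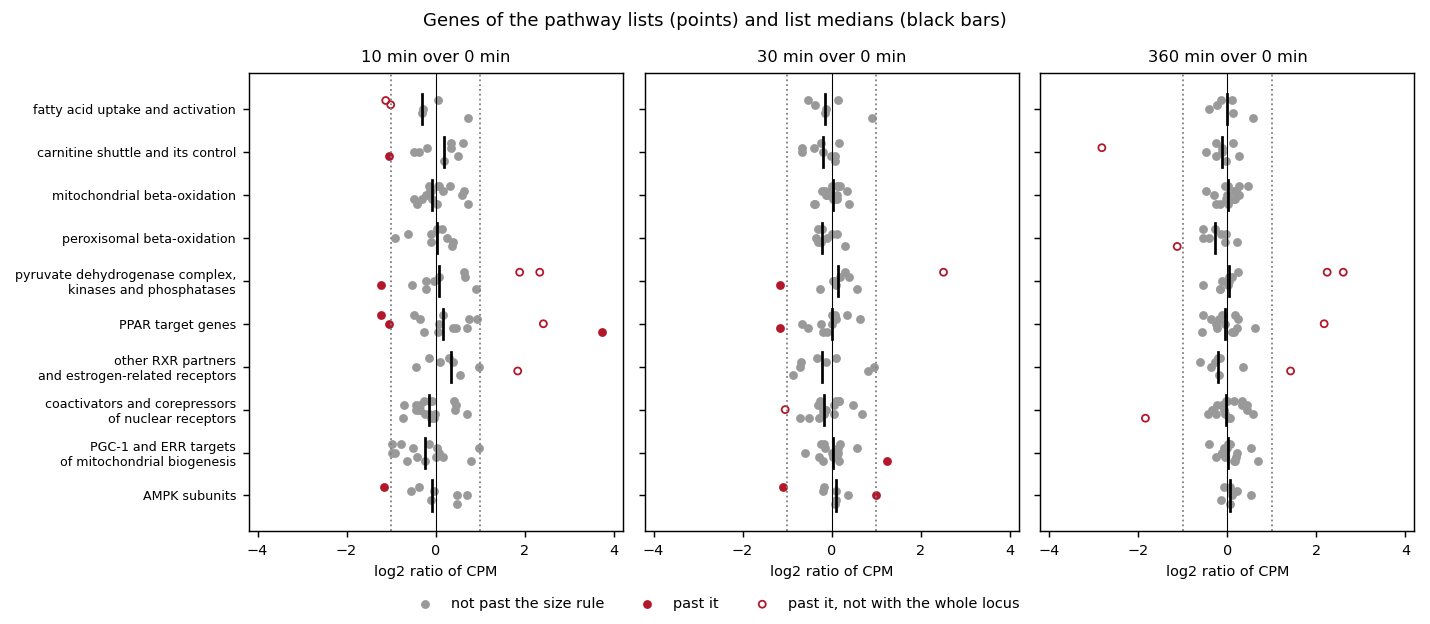
Log2 ratio of CPM, doxorubicin over 0 min (horizontal axis), of each gene with at least 5 CPM in the 10 pathway lists at 10, 30 and 360 min; black bars are list medians, dotted lines 2-fold, filled red points genes past the rule, and open red points those past it that were short of it over the whole locus. The mitochondrial beta-oxidation genes all lie inside 2-fold, and every red point at 360 min is open.

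Across 11300 coding genes outside the members, those whose log2 ratios at the 3 times lay nearest to PPARA by Euclidean distance were PCNX3 (0.131), ELF1 (0.271), FLRT2 (0.468), PCDHGA4 (0.477) and KLHDC10 (0.714). PCNX3 had 58.3, 26.0, 14.8 and 15.5 CPM at 0, 10, 30 and 360 min, a course like that of PPARA from a higher level. For PDK4 they were KCTD12 (0.164), BRD9 (0.228), NAV2 (0.250), SYNPO (0.266) and TM2D2 (0.306). All ratios share the 0 min library, so likeness over 3 points describes these 4 libraries alone.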

How the data were processed

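The authors deposited estimated counts per transcript for 4 libraries, neither scaled nor divided by length. Per the submitters' processing notes, HISAT2 and GRCh38 were used. Counting tool, annotation release and strand use: not given in the sources used here. Of the counts, 88.8% lie in transcripts of GENCODE 29 and 11.1% in models made by the assembly.

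Annotated transcripts were summed per gene and divided by library totals (55156612 to 56875881 counts) with Python 3.11.15, pandas 2.3.3, numpy 2.4.6 and SciPy 1.17.1. Low values had local peaks at 4, 8 and 12, although 1 and 2 were the most frequent (3531 and 2932 values, against 2703 at 4). From these peaks a read pair was taken as about 4 counts. Intervals (exact Poisson for levels, Clopper-Pearson for shares, conditional binomial for ratios) are at 95% and cover counting error only. The floor was 3 read pairs, or 12 counts. A gene passed at 2-fold, at least 5 CPM in 1 of 2 libraries and an interval without 1. The whole locus adds assembled models where a locus could be tied to the gene by its counts. TMM factors came from edgeR 4.0.16 in R 4.3.3, and figures from matplotlib 3.10.9. With 1 library per time no model was fitted and no p-value computed. The size rule was tried on simulated data with counting noise only. Such data cannot show how the rule fares with spread between libraries or with error in dividing reads among transcripts.

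Named were all members, PPARA transcripts of at least 0.5 CPM, the 2 leading transcripts of other members, list genes past the rule (failing any, the 2 with the largest ratio), and the 5 nearest genes by likeness. Members and lists were chosen with earlier results of these data known. Division by transcript length and the whole locus for lists were chosen after seeing the data.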

Additional observations from a re-analysis of the deposited data

Results flagged for a closer look

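Assembled transcript models lie outside the main measurement, and at 2 loci they held more counts in treated libraries than in the untreated one. At the RXRB locus they held 32.0 CPM at 10 min, 14.1 CPM at 30 min and 37.0 CPM at 360 min, against 6.0 CPM at 0 min. At the ESRRA locus they held 6.06 CPM at 360 min, against 2.29 CPM at 0 min. They held no counts at 10 and 30 min, where the counting intervals reach up to 0.265 and 0.267 CPM. Which exons these models hold was not tested.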

How the results depend on the processing

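No paired analysis was possible because each time has 1 library. TMM and median-of-ratios factors left every member's direction and call as reported, and undivided counts left the counts of members called. Counting the whole locus reversed RXRB at 360 min (log2 ratio 0.024) and left 1 of 9 members lower then, where 0.988% of 9717 genes were. At 30 min it gave 3 of 9 lower, ESRRA besides PPARA and PDK4, where 1.36% of 9761 genes were. At 10 min it kept 2 of 9 lower, where 4.66% of 10050 genes were. Against the median of the other 3 libraries PPARA at 10 min stood at a log2 ratio of 0.83. At 1.5-fold 1 of 9 members was higher at 10 min, where 1960 of 11892 genes were. Lower at 1.5-fold were 3 of 9 at 10 min, 4 at 30 min and 3 at 360 min. Over all genes 2026 of 11892, 883 of 11533 and 805 of 11511 were lower at these times. At 3-fold 0 of 9 were lower at 10 min, 1 at 30 min and 2 at 360 min. Over all genes 242 of 11892, 160 of 11533 and 162 of 11511 were. With 1 CPM as the minimum, PPARGC1A passed as lower at 30 min. Over all genes, higher and lower counts at 10, 30 and 360 min were 600 and 468, 160 and 133, and 96 and 96 with whole loci; 1960 and 2026, 953 and 883, and 773 and 805 at 1.5-fold; and 345 and 242, 171 and 160, and 161 and 162 at 3-fold. From 1 CPM, 1816 were higher at 10 min, 746 and 728 higher and lower at 30 min, and 636 and 719 at 360 min. The cause of these differences was not tested, beyond the lower threshold or the added models themselves. With TMM factors 830 were higher and 883 lower at 10 min, against 915 and 815. Per kilobase, 5 of 30 member ratios moved outside their intervals, all 3 of PPARA among them. With coding transcripts only 6 of 30 did, and 4 directions turned, among RXRA and PPARG. Against the median of the other 3 libraries, 9 of 30 directions turned, PPARA, ESRRA and RXRB at 10 min and PDK4 and CPT1A at 360 min among them. Depth limits PPARGC1A most, at 1.12 to 3.60 CPM.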
